A study of Mus musculus with 6 samples.

Results

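The genes described here encode mitochondrial ribosomal proteins. They were found by name, as the array rows whose only gene symbol on the platform starts with Mrpl or Mrps followed by a number, with a signal of 100 or more on at least 1 of the 6 arrays. The rule gave 76 genes of the 9678 genes with 1 name that were tested, and each gene was read from its probe set with the highest mean log2 signal. Of these genes, 26 encode proteins of the small subunit, 49 encode proteins of the large subunit, and 1, Mrps36, encodes a protein that was once counted to the small subunit and is now placed in the α-ketoglutarate dehydrogenase complex. All genes on the array with such a symbol of their own reached a signal of 100, so that the threshold left out no gene, and it left out 20 of their 156 probe sets. The dimmest gene inside it was Mrps25, with signals of 172, 265 and 165 after 1 Gy, against 331, 306 and 212 after 0 Gy.

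The irradiated group (1 Gy, 3 arrays) and the mock group (0 Gy, 3 arrays) held the same 3 murine pre-B cell lines, numbered here by replicate. Each was derived independently from WT mice, carried Eμ-Bcl2 (a transgene against cell death that is active in lymphocytes) and was transformed by v-abl, an oncogenic kinase under which pre-B cells keep growing. Both groups were kept for 48 hours in 3 μM STI-571 (imatinib), a blocker of the Abl kinase, which holds the cells before S phase, and were collected 2 hours after irradiation at 0.72 Gy per minute from a cesium source or after mock treatment. Cells of either dose were therefore transformed, protected by Bcl2 and arrested in G1, and ages of the donor mice were not given in the sources used here. The study asked which transcripts of arrested pre-B cells respond to double strand breaks from ionizing radiation.

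The mitochondrial ribosome makes the few proteins encoded by mitochondrial DNA, all of them parts of the respiratory chain and ATP synthase. Its RNA comes from mitochondrial DNA, while its proteins are encoded in the nucleus, translated in the cytosol and imported. Many of these proteins have counterparts in the bacterial ribosome, and others were added in mitochondria, where some took over places that ribosomal RNA holds in bacteria. The small subunit reads the mRNA, and the large subunit joins the amino acids and sits at the inner membrane.

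The deposited signals were linear values scaled to 1 mean per array, and 41.7% to 43.8% of probe sets reached 100 on an array. Markers of the B lineage were present (10 of 10 on the array reached 100, with summed signals of 79590 to 107604 after 1 Gy and 100931 to 106651 after 0 Gy), no erythroid marker of 4 reached 100, and of the T cell and stromal lists 1 of 8 (Lat) and 1 of 7 (Vim) did. The 7 myeloid markers, of which 2 reached 100 on their brightest probe set, summed to 532 to 630 after 1 Gy and 336 to 445 after 0 Gy, and the 4 plasma cell markers to 3279 to 5068 after 1 Gy and 5247 to 6493 after 0 Gy. For beta-actin the 3′ signal over the 5′ signal, a sign of RNA quality, was 1.38, 1.26 and 1.32 after 1 Gy, against 1.40 or more on each array after 0 Gy. The same ratio for Gapdh overlapped between doses, at 0.80, 0.78 and 0.79 after 1 Gy, against 0.79, 0.90 and 0.77 after 0 Gy. Among the B lineage markers Rag1 (log2 fold change -1.77) and Rag2 (-2.40) were lower at a limma adjusted p under 0.05 with and without the cell line as a block, and Dntt (-0.94) with it only. These 3 genes, the myeloid and plasma cell sums and the actin ratio moved with dose, and their part in the results below was not tested.

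Most mitochondrial ribosomal protein genes changed little 2 hours after 1 Gy. Read from its brightest probe set, no gene of the 76 reached a 2-fold change (log2 fold change of 1), while a dimmer probe set of Mrpl54 had 1.02. The median log2 fold change was -0.09, beside -0.11 over all 9678 genes tested. Of the 76 genes, 47 lay below 0 and 29 above (61.8% below, beside 60.3% of all genes). In bulk RNA, fewer cells that express a gene and less RNA per cell cannot be told apart. Tested with limma over 21762 probe sets with dose as the only factor, 1 of the 76 was called lower at an adjusted p under 0.05, beside 3.2% of all genes, and none was called higher, beside 2.11% of all genes (4 were higher at an unadjusted p under 0.05, and the test of the study's methods with the same adjustment also called 0). With the cell line as a block, 5 of the 76 were called lower, beside 14.7% of all genes, and 2 were called higher, beside 6.61% of all genes. With no filter on dim probe sets, limma called none of the 76 and none of all 9678 genes with either fit (of the 76, 4 were lower and 2 higher at an unadjusted p under 0.05 without the block), and the 7 genes called with the block then had adjusted p-values of 0.25 to 0.30. These 7 genes are shown in the plot of their signals.

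**Figure D1:**
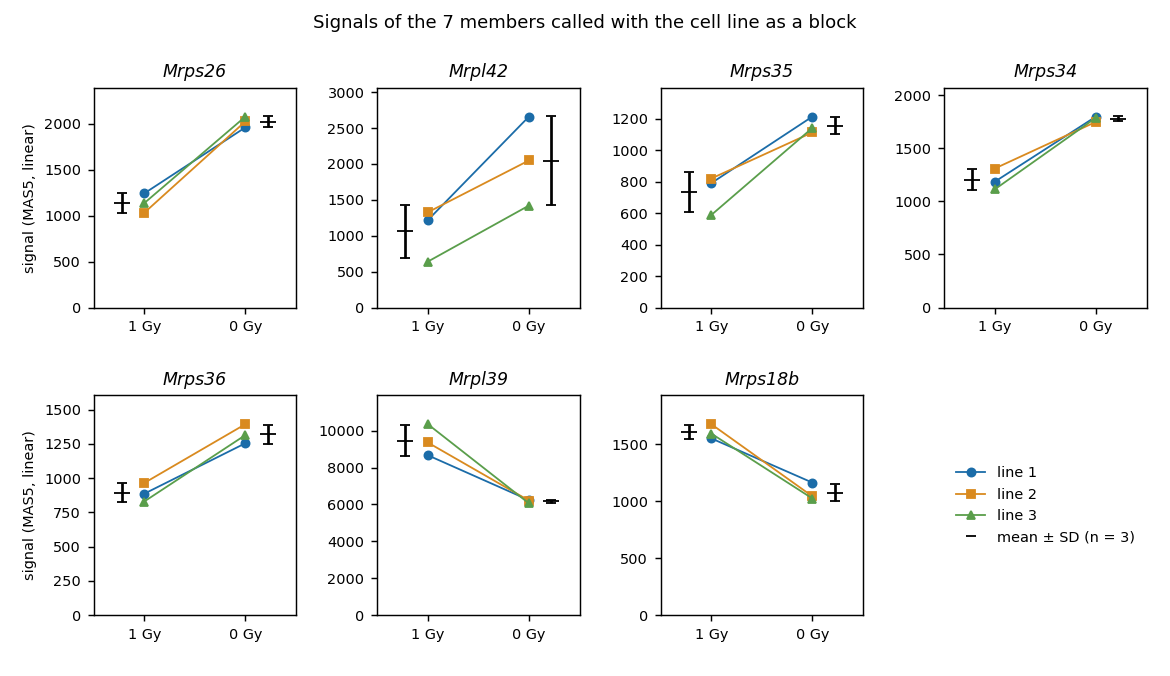
Linear signals of the 7 genes called with the cell line as a block, after 1 Gy and after 0 Gy, with the arrays of a cell line joined, and the mean ± SD of each group (n = 3) beside the points. The groups do not overlap in any of the 7 panels, and in that of Mrpl42 the 3 cell lines lie between 639 and 1326 after 1 Gy and between 1421 and 2660 after 0 Gy.

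Mrps26 encodes a small-subunit protein with no bacterial counterpart. Its signals were 1242, 1031 and 1136 in lines 1, 2 and 3 after 1 Gy, against 1962, 2027 and 2079 after 0 Gy. The groups did not overlap, and the highest irradiated array lay below the lowest mock array by more than the range of either group. The signal averaged 1137 ± 106 after 1 Gy and 2023 ± 58.8 after 0 Gy (SD, n = 3 each), which is 1.78-fold lower (log2 fold change -0.84, SE 0.13, limma adjusted p = 0.035 without and 0.022 with the block). It was the only member called without the block, and its adjusted p lay between 0.086 and 0.127 when any 1 array was left out.

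Mrpl42, for a mitochondria-specific protein of the large subunit, had the largest fall. Its signals were 1216, 1326 and 639 after 1 Gy, against 2660, 2049 and 1421 after 0 Gy. All irradiated arrays lay below all mock arrays, but the lines also differed among themselves, with line 3 lowest at both doses. The fall was 1.96-fold (log2 fold change -0.97), with an SE of 0.37 and an adjusted p of 0.19 without the block, and an SE of 0.16 and an adjusted p of 0.025 with it (limma). The log2 fold changes in the 3 lines were -1.13, -0.63 and -1.15.

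Read from their brightest probe sets, the other genes called lower with the block were also outside the set with bacterial counterparts. Mrps35, a mitochondria-specific small-subunit protein, had signals of 790, 819 and 588 after 1 Gy, against 1213, 1113 and 1141 after 0 Gy. It was 1.59-fold lower (log2 fold change -0.67, SE 0.17 without and 0.15 with the block, limma adjusted p = 0.089 without and 0.045 with it). Line 3 fell most, and the mock arrays lay closer together than the irradiated ones. Mrps34, a mitochondria-specific small-subunit protein whose loss in humans destabilises that subunit, had 1185, 1309 and 1113 after 1 Gy, against 1799, 1749 and 1788 after 0 Gy. The groups did not overlap (log2 fold change -0.57, SE 0.13, limma adjusted p = 0.069 without and 0.042 with the block). A further probe set that the platform assigns to both Nme3 and Mrps34 was not counted as a member, and it read 207, 226 and 120 after 1 Gy, against 451, 442 and 259 after 0 Gy.

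Mrps36, the α-ketoglutarate dehydrogenase protein that keeps a ribosomal name, was also lower. It had 886, 964 and 829 after 1 Gy, against 1254, 1393 and 1314 after 0 Gy. The 3 lines fell by similar amounts (log2 fold changes of -0.50, -0.53 and -0.66), and the mean of -0.57 (SE 0.13) had a limma adjusted p of 0.073 without and 0.038 with the block.

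The 2 genes called higher with the block were Mrpl39 and Mrps18b. Mrpl39, a mitochondria-specific large-subunit protein with a domain related to threonyl-tRNA synthetase, had 8667, 9357 and 10352 after 1 Gy, against 6232, 6208 and 6056 after 0 Gy. It was 1.53-fold higher (log2 fold change 0.61, SE 0.13, limma adjusted p = 0.061 without and 0.038 with the block), and line 3 was the lowest of the mock arrays and the highest of the irradiated ones. A second Mrpl39 probe set read 3159, 3884 and 3847 after 1 Gy, against 2005, 2012 and 2062 after 0 Gy, a log2 fold change of 0.83 (SE 0.14) that was called without the block as well (limma adjusted p = 0.038 without and 0.022 with it). Both probe sets of Mrpl39 thus gave groups that did not overlap.

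Mrps18b is 1 of the 3 mammalian genes related to bacterial S18, beside Mrps18a and Mrps18c. Its signals were 1552, 1677 and 1594 after 1 Gy, against 1163, 1043 and 1024 after 0 Gy. The groups did not overlap and all lines rose (log2 fold change 0.58, SE 0.13, limma adjusted p = 0.065 without and 0.041 with the block). The other members of the trio were not called: Mrps18c, the small-subunit counterpart of bacterial S18, had a log2 fold change of 0.05 (SE 0.22) and Mrps18a, whose protein sits in the large subunit despite its name, had 0.13 (SE 0.14). The difference between the 3 genes was not tested. With both arrays of any 1 line left out, none of the 7 genes was called with the block (limma adjusted p of 0.057 to 0.171). At most 0.754% of all genes were then called lower and 0.827% higher. With arrays scaled to a common median the block fit called 2 lower (Mrps26 and Mrpl42), beside 11.3% of all genes. It called 2 higher (Mrpl39 and Mrps18b), beside 8.11% of all genes.

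Promoter windows of genes called in either direction are shown so that those that fell and those that rose can be set side by side, each running from 250 bases before to 50 bases after the annotated start of the gene (RefSeq, build GRCm38.p6, 5′ to 3′ on the strand of the gene). Capitals mark matches, on either strand, to the binding sequences searched: the NRF-1 core GCATGCGC, the ETS site CCGGAAG (bound by GABP among others), the YY1 site AAGATGGCG, the GC box GGGCGG, the E box CACGTG and the CCAAT box. Mrps26 lies at chr2:130563507-130563806 (plus strand), Mrpl42 at chr10:95501900-95502199 (minus strand), Mrpl39 at chr16:84735195-84735494 (minus strand) and Mrps18b at chr17:35916391-35916690 (minus strand).
Mrps26: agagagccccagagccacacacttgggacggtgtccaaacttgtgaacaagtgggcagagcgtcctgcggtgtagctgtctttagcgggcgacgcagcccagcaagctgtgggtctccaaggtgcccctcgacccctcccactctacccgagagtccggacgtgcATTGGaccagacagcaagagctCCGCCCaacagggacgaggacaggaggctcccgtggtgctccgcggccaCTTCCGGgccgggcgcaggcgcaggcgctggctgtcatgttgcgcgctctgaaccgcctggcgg
Mrpl42: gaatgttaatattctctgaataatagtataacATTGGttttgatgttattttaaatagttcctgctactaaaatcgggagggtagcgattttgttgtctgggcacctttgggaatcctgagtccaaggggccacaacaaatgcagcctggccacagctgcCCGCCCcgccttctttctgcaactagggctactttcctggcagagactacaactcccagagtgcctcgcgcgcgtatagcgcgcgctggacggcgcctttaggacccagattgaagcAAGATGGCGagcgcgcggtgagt
Mrpl39: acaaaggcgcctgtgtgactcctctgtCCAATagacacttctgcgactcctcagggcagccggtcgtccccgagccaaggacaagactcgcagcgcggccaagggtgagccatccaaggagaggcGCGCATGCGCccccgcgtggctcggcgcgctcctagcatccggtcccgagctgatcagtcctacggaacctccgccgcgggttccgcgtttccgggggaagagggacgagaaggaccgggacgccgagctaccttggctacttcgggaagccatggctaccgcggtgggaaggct
Mrps18b: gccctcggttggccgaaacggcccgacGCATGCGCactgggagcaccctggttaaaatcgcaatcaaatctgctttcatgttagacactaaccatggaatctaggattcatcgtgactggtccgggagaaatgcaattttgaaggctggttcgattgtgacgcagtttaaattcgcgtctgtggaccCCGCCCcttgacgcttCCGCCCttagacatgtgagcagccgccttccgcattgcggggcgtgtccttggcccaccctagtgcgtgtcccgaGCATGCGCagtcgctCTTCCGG

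Of the 76 genes, 67 had a window in the RefSeq table, and Mrps34, Mrps35, Mrpl54, Mrpl4, Mrpl13, Mrpl15, Mrpl19, Mrpl38 and Mrps28 had none there. NRF-1 and GABP are activators of many nuclear genes for mitochondrial proteins. The NRF-1 core was present in 8 of the 67 windows (11.9%, beside 6.74% of the windows of 7924 tested genes and 3.05% of those of all 27025 genes in the table), the ETS site in 25 (37.3%, beside 23.0% and 9.93%), and the YY1 site in 8 (11.9%, beside 4.18% and 1.64%). The GC box was present in 34 (50.7%, beside 70.6% of tested and 38.2% of all genes), CCAAT in 26 (38.8%, beside 43.5% and 41.1%) and the E box in 5 (7.46%, beside 12.6% and 8.09%). No member window held overlapping ETS and YY1 matches on the same strand. Mrpl39 and Mrps18b, which rose, were both among the 8 with an NRF-1 core, and the other 6 (Mrpl9, Mrpl10, Mrpl17, Mrpl22, Mrpl32 and Mrpl33) had log2 fold changes from -0.25 to 0.17. In Mrpl39 the core reads on both strands, in overlapping matches that begin 125 bases before the start. Mrpl42 carries its YY1 match within the transcribed part, 27 bases after the start, and the 8 genes with such a match had log2 fold changes from -0.97 to 0.13. The median log2 fold change of members with and without a match was 0.00 and -0.15 for the NRF-1 core, -0.12 and -0.09 for the ETS site, -0.28 and -0.08 for the YY1 site, -0.22 and -0.03 for the GC box, -0.25 and -0.02 for CCAAT, and -0.25 and -0.09 for the E box, with no test of these splits. A match describes the letters of these windows and was not set against any binding data.

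Across the small subunit, 18 of 26 genes lay below 0 and the median log2 fold change was -0.21. In 10 of them (38.5%, beside 20.6% of all genes) all irradiated arrays lay below all mock arrays, and in 2 (7.69%, beside 12.3%) all lay above. Of the 16 genes with a bacterial counterpart 10 lay below 0 (median -0.21), and of the 10 mitochondria-specific genes 8 did (median -0.24). With the block, 3 genes of the small subunit were called lower (11.5%, beside 14.7% of all genes) and 1 higher (3.85%, beside 6.61%). Read from their brightest probe sets, all of these belonged to the mitochondria-specific set, in which Mrps18b is placed because Mrps18c takes the position of bacterial S18. Other probe sets of Mrps15 and Mrps24, which have bacterial counterparts, were also called lower with the block. Mrps12, the counterpart of the bacterial decoding-centre protein S12, had 999, 1228 and 974 after 1 Gy, against 1286, 1480 and 1413 after 0 Gy (log2 fold change -0.39, SE 0.15). These groups did not overlap, but the adjusted p was 0.20 without and 0.092 with the block (limma). Mrps27, an RNA-binding pentatricopeptide repeat protein, had 248, 313 and 218 after 1 Gy, against 263, 339 and 267 after 0 Gy, and its groups overlapped. Mrps14 had 4466, 3947 and 3788 after 1 Gy, against 5748, 4919 and 4106 after 0 Gy, lower in each of the 3 lines although its groups overlapped. Mrps25, given above, had a log2 fold change of -0.51 (SE 0.27).

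The rises of the small subunit were fewer. After Mrps18b came Mrps7, the counterpart of a bacterial protein that starts assembly of the subunit head. It had 1674, 1641 and 1845 after 1 Gy, against 1446, 1333 and 1224 after 0 Gy (log2 fold change 0.37, SE 0.14), groups that did not overlap, with a limma adjusted p of 0.18 without and 0.125 with the block.

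Across the large subunit, 28 of 49 genes lay below 0 and the median log2 fold change was -0.06. The 29 genes with a bacterial counterpart had 17 below 0 (median -0.06) and none called on its brightest probe set (1 was lower and 0 higher at an unadjusted p under 0.05 without the block). Other probe sets of Mrpl11 and Mrpl28, which are among these, were called lower with the block. The 20 mitochondria-specific genes had 11 below 0 (median -0.04), with Mrpl42 called lower and Mrpl39 called higher by the block fit. All irradiated arrays lay below all mock arrays in 10 genes (20.4%, beside 20.6% of all genes) and above them in 6 (12.2%, beside 12.3%), shares at the background. After Mrpl42, Mrpl18 fell most, a relative of the bacterial protein that binds the 5S RNA. Its signals were 1729, 1991 and 1495 after 1 Gy, against 2951, 2376 and 2158 after 0 Gy (log2 fold change -0.52, SE 0.19). The groups did not overlap, and the adjusted p was 0.17 without and 0.077 with the block (limma). The medians of the 2 subunits are given as a description, and their difference was not tested.

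Mrpl54, Mrpl45 and Mrpl46, all mitochondria-specific, followed Mrpl39 among the rises. Mrpl54 had 1533, 1324 and 1576 after 1 Gy, against 1233, 995 and 1019 after 0 Gy, without overlap (log2 fold change 0.45, SE 0.16, limma adjusted p = 0.16 without and 0.073 with the block). Mrpl45, which helps to hold the ribosome at the inner membrane, had 2350, 2784 and 2387 after 1 Gy, against 2299, 1634 and 1932 after 0 Gy (log2 fold change 0.37, SE 0.18). Its irradiated arrays were all above the mock arrays, by a narrow margin in line 1, where the log2 fold change was 0.03. Mrpl46 had 1691, 1626 and 1472 after 1 Gy, against 1608, 1208 and 1086 after 0 Gy (log2 fold change 0.31, SE 0.19). It was higher in each line while the groups overlapped.

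Large-subunit proteins with known tasks mostly stayed near the median of all genes, and none of those that follow was called by either fit. The stalk of the large subunit, which receives the translation factors, is formed by Mrpl10, Mrpl11 and Mrpl12. Their log2 fold changes were -0.08 (SE 0.12), -0.14 (SE 0.20) and -0.15 (SE 0.16). Mrpl12, which in human cells also binds the mitochondrial RNA polymerase, had 1974, 2067 and 1969 after 1 Gy, against 2650, 1920 and 2147 after 0 Gy, so that line 2 ran opposite to lines 1 and 3. Mrpl3, which reaches towards the peptidyl transferase centre, had 2902, 2680 and 2118 after 1 Gy, against 2517, 2340 and 1899 after 0 Gy, higher in each line by 0.16 to 0.21 on the log2 scale. Mrpl41, described in human cells as a partner of BCL2, had 2305, 2441 and 2726 after 1 Gy, against 2811, 3197 and 2729 after 0 Gy. All its irradiated arrays lay below its mock arrays, and in line 3 the log2 fold change was 0.00. Mrpl44, which has a ribonuclease III fold, had a log2 fold change of -0.09 (SE 0.16). Mrps30, a large-subunit protein also known as programmed cell death protein 9, had 0.16 (SE 0.16).

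Mrpl43, a large-subunit protein with a bright probe set, had 4366, 4091 and 3913 after 1 Gy, against 4969, 5019 and 4810 after 0 Gy, groups that did not overlap (log2 fold change -0.26, SE 0.12, limma adjusted p = 0.28 without and 0.17 with the block). Mrpl1, which borders the tRNA exit site and has a dim probe set, had 473, 385 and 371 after 1 Gy, against 391, 333 and 369 after 0 Gy, and its groups overlapped. Signals of different probe sets are not measures of how much of each transcript was present.

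Taken by single arrays, 21 of the 76 genes had all irradiated arrays below all mock arrays, beside 20.6% of all genes, and 8 had all above, beside 12.3% of all genes. By line, 33 genes were lower in 3 of 3 lines, beside 41.3% of all genes, and 16 were higher in 3 of 3 lines, beside 23.7% of all genes. For the members these shares are 27.6%, 10.5%, 43.4% and 21.1%. The remaining 27 genes moved in both directions across lines. The median of the 76 genes was -0.16 in line 1, 0.02 in line 2 and -0.13 in line 3 so that line 2 differed in sign. With arrays scaled to a common median the median of the members was 0.01, with 36 of 76 below 0, that of the large subunit was 0.04 and that of the small subunit was -0.12, while the median of all probe sets tested moved to 0.04, against -0.06 as deposited.

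**Figure D2:**
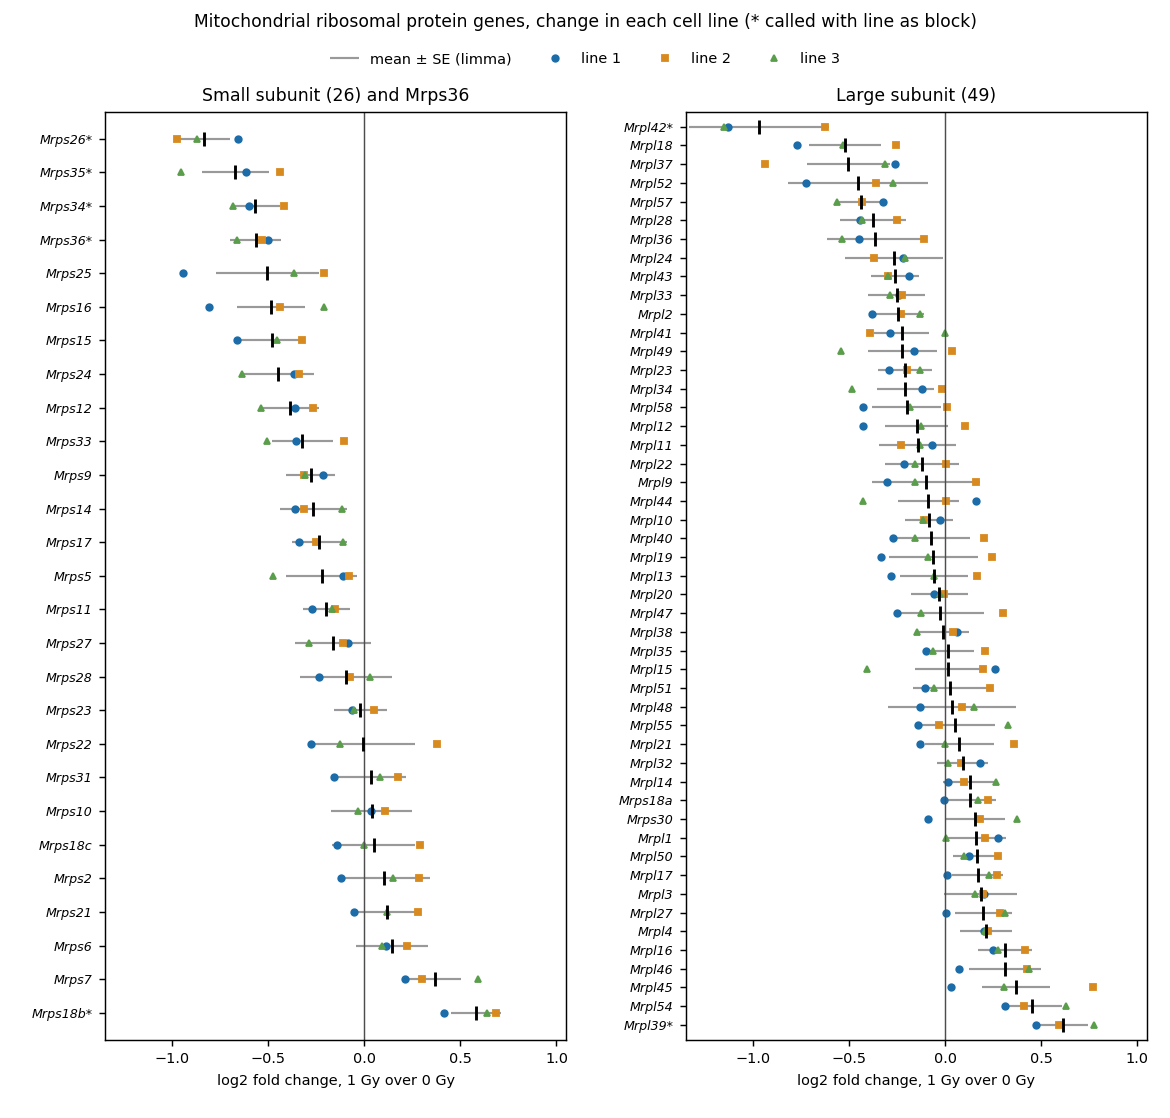
Log2 fold change (1 Gy over 0 Gy) of each of the 76 genes, small subunit with Mrps36 on the left and large subunit on the right, with 1 point per cell line and a bar for the mean ± SE of the limma fit without the block. An asterisk marks the 7 genes called with the block, and most other means lie within 0.5 of 0.

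Some members differed more between cell lines than between doses. Over the 3 mock arrays the SD of the log2 signal had a median of 0.16 across the 76 genes, and over the irradiated arrays it was also 0.16, beside 0.24 and 0.24 across all genes. The members were also brighter, with a median log2 signal per array of 10.4 to 10.7, beside 9.57 to 9.79 for all genes. The part of brightness in the smaller spread was not tested. The widest spread among mock arrays was that of Mrpl52, a mitochondria-specific large-subunit protein, at 0.61. Its signals were 1705, 1498 and 1003 after 1 Gy, against 2821, 1918 and 1212 after 0 Gy. Line 1 was highest and line 3 lowest at both doses, so that the groups overlapped although each line was lower after irradiation. Mrps34 had the narrowest spread among mock arrays, at 0.02.

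For 36 of the 76 genes more than 1 probe set was tested, and in 25 of them every probe set lay on the same side of 0. In the other 11 directions were mixed, and in 6 of these every probe set lay within 0.3 of 0 on the log2 scale. The widest mixed genes were Mrpl35 (0.02 by its brightest probe set and -0.55 by a dim one), Mrpl51 (0.03 against a lowest value of -0.51), Mrpl38 (-0.01 against a highest value of 0.51), Mrpl11 (from -0.53 to 0.05) and Mrpl52 (from -0.45 to 0.14). Those within 0.3 were Mrpl3, Mrpl13, Mrpl15, Mrpl19, Mrpl48 and Mrps9. With the block, 13 of the 136 tested probe sets were called, 9 lower (beside 11.5% of all probe sets tested) and 4 higher (beside 6.78%), and 6 of the 13 were not the brightest of their gene. Apart from that of Mrpl39 these belonged to Mrpl11 (log2 fold change -0.53), Mrpl28 (-0.50), Mrps15 (-0.58), Mrps24 (-0.59) and Mrpl54 (1.02). The second probe set of Mrps24 read 1063, 1069 and 1021 after 1 Gy, against 1618, 1513 and 1627 after 0 Gy, without overlap (limma adjusted p = 0.055 without and 0.035 with the block). Its brightest one had -0.45 and was not called (adjusted p = 0.23 without and 0.075 with the block). Averaging the probe sets of each gene gave 3 genes called lower (beside 4.24% of all genes) and 2 higher (beside 2.79%) without the block. With the block the averaged Mrpl54 was called higher (log2 fold change 0.74, limma adjusted p = 0.024), where 9.19% of all genes were.

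**Figure D3:**
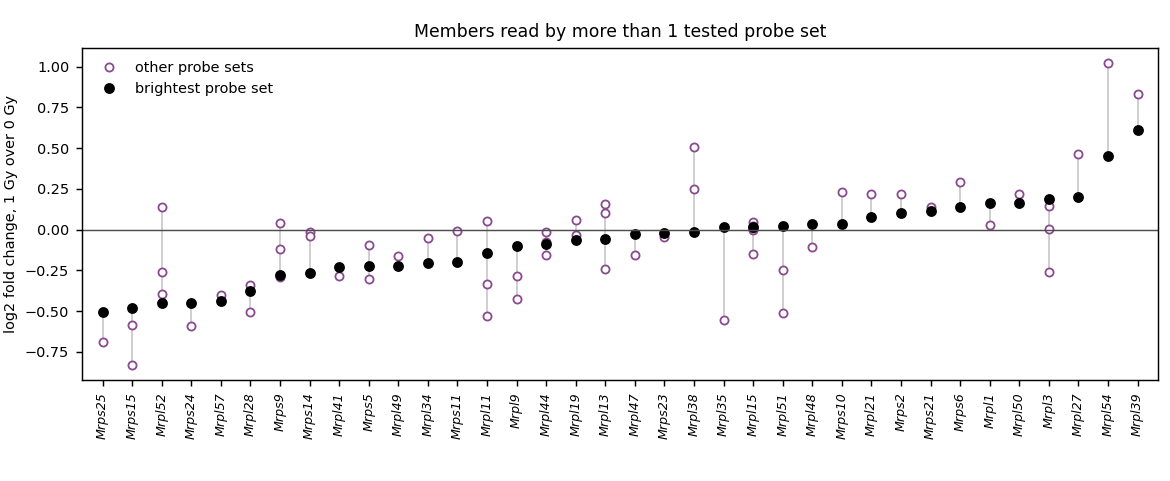
Log2 fold change (1 Gy over 0 Gy) of every tested probe set of the 36 genes that have more than 1, with the brightest probe set as a filled point. Open points lie on the same side of 0 as the filled one in 25 genes, and in Mrpl54 the dim probe set is the higher, at 1.02.

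Some probe sets carry several gene names and were left out of the 76. That assigned to Gm6238 and Mrpl30 read 4771, 4132 and 4212 after 1 Gy, against 5663, 4554 and 4513 after 0 Gy. That assigned to Ccdc142 and Mrpl53 read 1789, 1822 and 1595 after 1 Gy, against 2177, 2453 and 2034 after 0 Gy. Both were lower in each of the 3 lines, and only the second had groups without overlap. Which of the named genes gave the signal cannot be told from the array. A further list held 5 genes with other symbols, and limma called none. Dap3, Ptcd3, Chchd1 and Gadd45gip1 encode proteins of the mitochondrial ribosome, while Oxa1l encodes an inner-membrane protein that is not part of it. Only Oxa1l was lower at an unadjusted limma p under 0.05 (log2 fold change -0.56). Dap3, a small-subunit GTPase that was named for its role in cell death, had 2114, 2030 and 2303 after 1 Gy, against 2445, 2689 and 2369 after 0 Gy (log2 fold change -0.22, SE 0.13, limma adjusted p = 0.39).

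Some members stand in divergent pairs, in which a neighbour on the opposite strand starts close by. How frequent such pairs are among other genes was not counted. A neighbour starting within 1000 bases was found for 26 of the 67 genes with a window, and 23 pairs had both genes measured. In 3 of these pairs the neighbour was called with the block while the member was not. Among all genes, 14.7% were called lower and 6.61% higher with the block, so that called neighbours were not more frequent than called genes in general. Helq, a helicase of DNA repair whose start lies 159 bases from that of Mrps18c, had 188, 201 and 151 after 1 Gy, against 435, 347 and 350 after 0 Gy (log2 fold change -1.07, limma adjusted p = 0.037 without and 0.018 with the block). Mrps18c, beside it, had 2988, 2642 and 2288 after 1 Gy, against 3301, 2163 and 2289 after 0 Gy. The arrays of Helq were separated by dose and those of Mrps18c were not.

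Tmem63b, a membrane channel that starts 131 bases from Mrpl14, had 984, 657 and 725 after 1 Gy, against 318, 402 and 358 after 0 Gy (log2 fold change 1.12, limma adjusted p = 0.042 without and 0.033 with the block). Mrpl14 had 1373, 1531 and 1703 after 1 Gy, against 1356, 1430 and 1414 after 0 Gy, a log2 fold change of 0.13. The third such neighbour, 2610507I01Rik at 55 bases from Mrpl55, had 101, 97.9 and 214 after 1 Gy, against 171, 189 and 508 after 0 Gy (log2 fold change -0.99, limma adjusted p = 0.33 without and 0.021 with the block), and Mrpl55 had 0.05. Neighbours were searched for 5 of the 7 genes called with the block, since Mrps34 and Mrps35 had no window. Of these 5, Mrps18b alone had a measured neighbour, Ppp1r10 at 756 bases, whose log2 fold change was 0.04 (adjusted p = 0.92). No difference within a pair was tested.

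Mrpl46 and Mrps11 are a pair made of 2 members, with starts 42 bases apart. Mrps11, a small-subunit protein, had 815, 790 and 810 after 1 Gy, against 985, 877 and 912 after 0 Gy (log2 fold change -0.20), all irradiated arrays below the mock arrays, while Mrpl46 had 0.31. Neither was called by either fit. Mrps12 (-0.39) shares a start region with Sars2, the mitochondrial seryl-tRNA synthetase (0.29), and Mrpl43 (-0.26) with Twnk, the mitochondrial DNA helicase (-0.45). Windows of Mrps11, chr7:78782881-78783180 (plus strand), and Mrps18c, chr5:100798509-100798808 (plus strand), are given as examples of these short regions between divergent genes, with capitals as above.
Mrps11: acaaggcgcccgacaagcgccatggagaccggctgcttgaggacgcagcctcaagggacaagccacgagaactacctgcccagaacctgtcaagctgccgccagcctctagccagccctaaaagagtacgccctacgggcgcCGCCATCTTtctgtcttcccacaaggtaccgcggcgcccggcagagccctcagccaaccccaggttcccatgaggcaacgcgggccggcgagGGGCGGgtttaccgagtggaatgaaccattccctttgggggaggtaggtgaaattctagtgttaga
Mrps18c: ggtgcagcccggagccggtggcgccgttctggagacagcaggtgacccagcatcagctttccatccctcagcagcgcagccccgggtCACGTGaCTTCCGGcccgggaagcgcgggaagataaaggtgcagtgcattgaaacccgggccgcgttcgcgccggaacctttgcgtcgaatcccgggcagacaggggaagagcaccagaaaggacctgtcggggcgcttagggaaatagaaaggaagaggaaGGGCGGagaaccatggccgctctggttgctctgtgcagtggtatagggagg

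**Figure D4:**
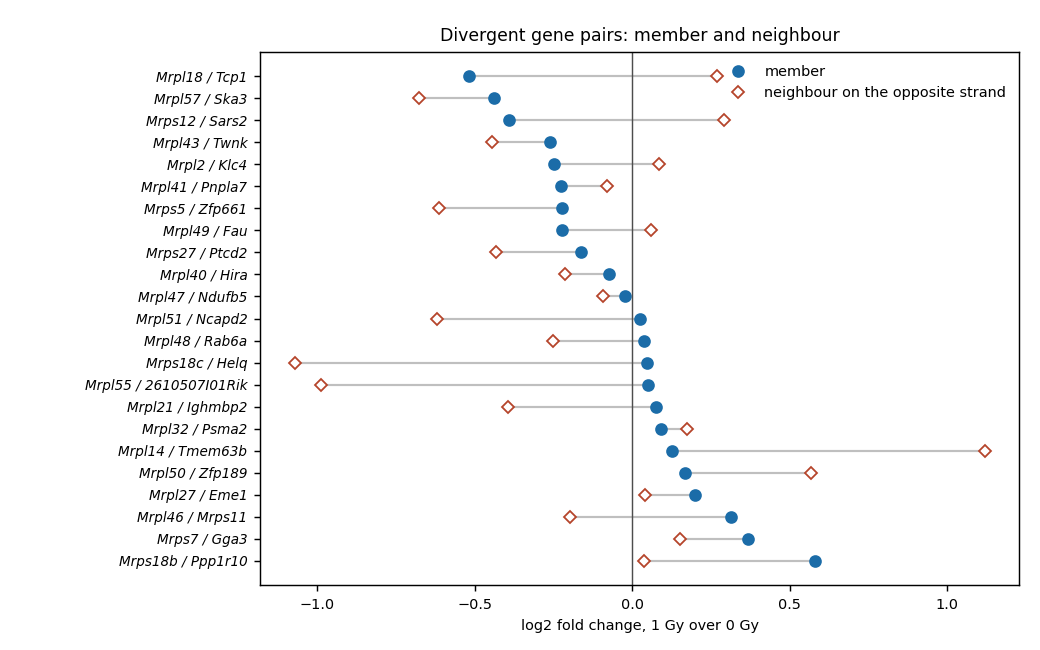
Log2 fold change (1 Gy over 0 Gy) of 23 divergent pairs, with the member as a filled circle and the neighbour on the opposite strand as an open diamond. The longest bars join Mrps18c (0.05) with Helq (-1.07), Mrpl55 (0.05) with 2610507I01Rik (-0.99) and Mrpl14 (0.13) with Tmem63b (1.12).

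Other genes of mitochondrial gene expression were read from lists of the same pathway, whose counts stand beside 14.7% lower and 6.61% higher among all genes with the block, and 3.2% and 2.11% without it. Of 25 genes for assembly of the mitochondrial ribosome and modification of its RNA, 3 (12%) were called lower and 0 higher with the block (1 lower without it), and the median log2 fold change was -0.19. Mtg1, a GTPase of large-subunit assembly, had 237, 258 and 191 after 1 Gy, against 443, 519 and 463 after 0 Gy (log2 fold change -1.06, SE 0.17, limma adjusted p = 0.034 without and 0.017 with the block). Tfb1m, which methylates the small-subunit RNA, had 100, 134 and 131 after 1 Gy, against 179, 233 and 240 after 0 Gy (log2 fold change -0.84), and Rbfa, an assembly factor of the small subunit, had -0.68. Both were called with the block only.

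Of 16 genes listed for mitochondrial translation, 3 (18.8%) were called lower and 0 higher with the block, with a median of -0.19. The list, labelled translation factors in the figure, also holds Gatb, Gatc, Qrsl1, Mtfmt, Lrpprc, Slirp and Mss51, which are not such factors. Qrsl1 and Gatc encode subunits of the enzyme that makes glutaminyl-tRNA in mitochondria. Qrsl1 had 953, 966 and 811 after 1 Gy, against 1653, 1653 and 1569 after 0 Gy (log2 fold change -0.84, SE 0.14, limma adjusted p = 0.035 without and 0.019 with the block). Gatc had 210, 229 and 179 after 1 Gy, against 335, 425 and 351 after 0 Gy (log2 fold change -0.85, adjusted p = 0.052 without and 0.021 with the block). Both genes had groups that did not overlap, and Guf1, a GTPase of the mitochondrial ribosome, had -0.56 and was called with the block.

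Of 15 mitochondrial aminoacyl-tRNA synthetases, which load tRNAs with amino acids, 5 (33.3%) were called lower and 0 higher with the block, and none without it (5 were lower at an unadjusted p under 0.05). The median was -0.41. Cars2 had 152, 213 and 403 after 1 Gy, against 325, 433 and 1008 after 0 Gy (log2 fold change -1.15, SE 0.54 without the block, limma adjusted p = 0.27 without and 0.015 with it). Its lines stood far apart at both doses and each fell. Nars2 (-0.85), Tars2 (-0.66) and Rars2 (-0.62) were also called with the block.

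Of 18 genes of mitochondrial DNA expression and maintenance, 3 (16.7%) were called lower and 1 (5.56%) higher with the block, with a median of -0.36 (0 lower and 1 higher without it). Mterf2 (-0.99), a transcription terminator relative, Top1mt (-0.75), the mitochondrial topoisomerase, and Pnpt1 (-0.74), a ribonuclease, were lower. Supv3l1, the helicase that works with that ribonuclease, had 1485, 1537 and 1312 after 1 Gy, against 925, 778 and 753 after 0 Gy (log2 fold change 0.82, SE 0.15, limma adjusted p = 0.044 without and 0.022 with the block). Tfam, which packs mitochondrial DNA, had -0.04 and Polrmt, the RNA polymerase, had -0.35, and neither was called.

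Of 14 regulators of mitochondrial gene expression and stress, 0 were called lower and 5 (35.7%) higher with the block, with a median of 0.36. Gabpb1, a β subunit of GABP, had 1561, 1219 and 1364 after 1 Gy, against 807, 711 and 846 after 0 Gy (log2 fold change 0.81, SE 0.16, limma adjusted p = 0.049 without and 0.022 with the block). Gabpb2, for another β subunit, had a log2 fold change of -0.11 and groups that overlapped (limma adjusted p = 0.71 without and 0.60 with the block). Atf5 (1.09) and Ddit3 (0.83), factors of the mitochondrial and integrated stress responses, and Pprc1 (0.72), a coactivator of the PGC-1 family, were called with the block only. The largest difference of the list ran the other way in Ppargc1b, another coactivator of that family, which had 8.29, 2.11 and 43.5 after 1 Gy, against 154, 80.9 and 44.2 after 0 Gy (log2 fold change -3.16, limma adjusted p = 0.17 without and 0.11 with the block). Its signals were below 100 on all but 1 array. The largest rise was that of Myc (log2 fold change 2.38), with 225, 160 and 283 after 1 Gy, against 657, 5.46 and 20.4 after 0 Gy. Line 1 ran opposite to the others (-1.55, against 4.88 and 3.79), and Myc was not called (limma adjusted p = 0.47 without and 0.26 with the block). Gabpa, the DNA-binding subunit of GABP, had 0.21, Nrf1, which encodes NRF-1, had 0.41 and Yy1 had 0.26. These were not called, and the irradiated arrays of all 3 lay above the mock arrays.

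Of 76 nuclear genes of the respiratory chain, 3 (3.95%) were called lower and 1 (1.32%) higher with the block, with a median of -0.02. Ndufv3 (-0.76), Ndufs5 (-0.59) and Ndufa8 (-0.48), all of complex I, were lower, and Ndufb1 (0.67), also of complex I, was higher. Of 45 cytosolic ribosomal proteins, only Rps27l, a p53 target, was called (0.60, higher, with the block), and the median was 0.03, with line medians of 0.08, -0.20 and 0.23. The lists were chosen with results of these arrays known, share these 6 arrays, and were not tested as sets.

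**Figure D5:**
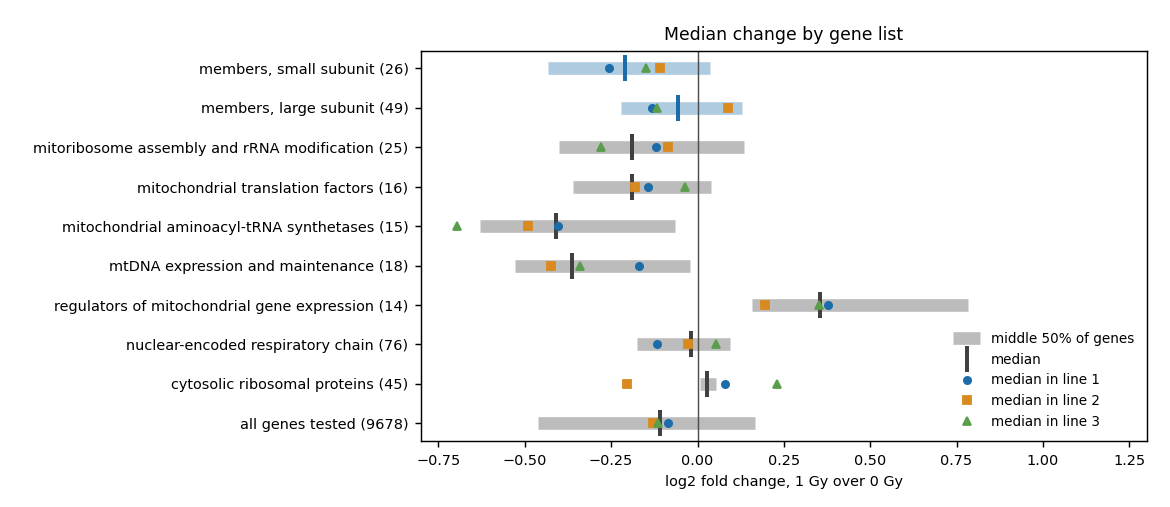
Median log2 fold change (1 Gy over 0 Gy) of each gene list, with the number of genes in brackets, the middle 50% of genes as a bar and the median within each cell line as a point. The members lie near the median of all genes (-0.11), the aminoacyl-tRNA synthetases at -0.41 and the regulators at 0.36.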

How the data were processed

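RNA of 6 cultures was hybridised to Affymetrix Mouse 430 2.0 arrays, 3 lines at 2 doses. The authors deposited 1 linear intensity per probe set and array. MAS5 is named in the submitters' processing notes, and the trimmed mean of every array was 500. The study itself analysed RMA values with quantile normalization, which are not used here. The study's methods and the labels name different RNA amplification kits.

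Signals under 1 were set to 1 and log2 values taken. Of 45037 probe sets without the 64 controls, the 21762 that reached 100 on at least 1 array were tested with limma (version 3.58.1, R 4.3.3), dose as the only factor, with Benjamini-Hochberg adjustment over all of them. An adjusted p under 0.05 was a call. The script was tested on simulated data. Medians over lists were computed with pandas 2.3.3 (Python 3.11.15). With 6 arrays, precision is limited by their number.

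The design text ties replicate numbers to cell lines. Deviations from group means of same-numbered arrays correlated at 0.668 to 0.781 over all tested probe sets, and those of other pairs at -0.495 to -0.053, so the numbers pair the arrays, and the fit with the replicate block is printed beside the main one where a call changes. P-values of the fit without the block set the dose difference against the spread between lines within each dose. Those of the fit with the block set it against how much that difference varied from line to line.

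Members and lists were chosen with earlier results of these data known. Genes named are the called members, the 6 largest falls and 6 largest rises, the 3 brightest and 3 dimmest, members with a named task, members with probe sets of mixed direction and, from other lists, up to 4 called genes. Others, among them the neighbours, Mrpl14, Mrps11, Mrpl55, Mrps24, Dap3, Tfam, Polrmt, Gabpa, Gabpb2, Nrf1 and Yy1, were chosen after their values were seen. Gene names came from the platform annotation (34945 probe sets with 1 name, 932 with several, 9160 not listed), and promoter windows from RefSeq. Alternatives were the block, other filters, quantile or median scaling, another offset or floor, a variance trend, a 1.5-fold minimum, the methods' test, averaging a gene's probe sets, and leaving out single arrays. Leaving out both arrays of a line, and the other settings combined with the block, were added after seeing the data.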

Additional observations from a re-analysis of the deposited data

How the results depend on the processing

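Shares in brackets are those of all genes under the same setting. Of the 76 genes, 1 was called lower (3.2%) and 0 higher (2.11%) by the fit with dose only. With the replicate block the counts were 5 lower (14.7%) and 2 higher (6.61%). Without the block, 0 were called lower with no filter on dim probe sets (0%, with 4 members at an unadjusted p under 0.05), 3 with signals under 100 set to 100 (5.08%), 3 with a variance trend (5.18%), 3 with a gene's probe sets averaged (4.24%), and 2 with the methods' test at its own thresholds (9.63%). Counts of genes called higher were 1 with a minimum of 100 on 3 arrays (3.05%), 2 with signals under 100 set to 100 (3.09%), 2 with a variance trend (3.42%), 2 with the mean of all probe sets (2.79%), and 1 with the methods' test at its own thresholds (4.72%). With any 1 array or both arrays of any 1 line left out, 0 were called lower (0% to 0.227%) and 0 higher (0% to 0.341%) by limma (4 to 9 were lower and 1 to 7 higher at an unadjusted p under 0.05), and the median log2 fold change of the members ran from -0.16 to 0.0193 over single arrays (the highest without 1 Gy replicate 3) and from -0.18 to -0.04 over lines. With the replicate block, 0 lower and 0 higher were called with no filter (0% each) or without both arrays of any line (at most 0.754% and 0.827%), 2 lower with scaling to a common median (11.3%), 1 higher with quantile normalization (6.9%), and 14 lower (22.2%) and 5 higher (11%) with a variance trend. The cause of these differences was not tested, beyond the smaller number of arrays in the fits that leave some out.

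Among single genes, Mrps26 lost its call with no filter (adjusted p = 0.216). Genes near 0 changed sign. With scaling to a common median, Mrpl10 was at 0.0115, Mrpl13 at 0.0382, Mrpl19 at 0.0345, Mrpl38 at 0.0827 and Mrpl44 at 0.00789. With quantile normalization, Mrpl19 was at 0.0134, Mrpl35 at -0.00637 and Mrpl38 at 0.0751. With the mean of all probe sets, Mrpl15 was at -0.00785, Mrpl35 at -0.27, Mrpl38 at 0.25, Mrpl48 at -0.0344 and Mrpl51 at -0.24. With arrays or lines left out, Mrpl13 ran from -0.17 to 0.0547, Mrpl15 from -0.11 to 0.23, Mrpl19 from -0.21 to 0.16, Mrpl35 from -0.0792 to 0.0734, Mrpl38 from -0.0801 to 0.0537, Mrpl44 from -0.21 to 0.0834, Mrpl48 from -0.25 to 0.28, Mrpl51 from -0.13 to 0.15 and Mrps18c from -0.0721 to 0.24. The 36 named genes were also followed over the alternatives, leaving out other settings combined with the block. Of 756 values, 680 kept their direction and side of the threshold and 45 changed sign. A further 21 passed the threshold where the dose-only fit did not, and 10 no longer passed it. Mrps26 alone passed in the dose-only fit, so these 10 are all its own. With no filter or with arrays left out few or no genes of the array passed, so staying below the threshold was there largely given. Signals near 100 lie close to background, and changes of such probe sets are the least certain.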
